A study of Rattus norvegicus with 9 samples.

Results

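Glutathione, the main thiol of the hepatocyte, is built from glutamate, cysteine and glycine inside the cell and taken apart outside it, and the genes described here encode the enzymes of that circuit. They were taken by name as the enzymes of glutathione synthesis and of the gamma-glutamyl cycle: Gclc, Gclm, Gss, Ggt1, Ggt5, Ggt7, Anpep, Dpep1, Lap3 and Oplah. Of these 10 genes, 9 had a line in the deposited table of 32883 genes, and no line carried the symbol Ggt5. The measurements were liver mRNA levels in 9 male Sprague-Dawley rats with 1 sequencing library each and 3 rats per group (normal control, DEN model, PZH administration). Normal control rats ate a normal diet. DEN model rats received weekly intraperitoneal injections of diethylnitrosamine (DEN, a liver carcinogen) at 0.01% over 16 weeks, a course that leads through fibrosis and cirrhosis to hepatocellular carcinoma. PZH administration rats received the same DEN injections together with PZH (Pien-Tze-Huang), a traditional Chinese formula, so DEN is common to both of these groups and no group received PZH alone. Which PZH dose a sequenced rat received and in which week its liver was taken are not given in the sources used here. The study also took livers before week 16, so a sequenced rat may have had a shorter course of DEN. Nor is it stated whether the liver pieces held nodules or the tissue around them. The treatment label of the DEN model rats also reads PZH, and the groups here follow the letter in each rat's name as the study's methods use it.

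In the first step of the pathway, glutamate-cysteine ligase joins glutamate to cysteine. The enzyme has a catalytic subunit, encoded by Gclc, and a modifier subunit, encoded by Gclm, and its product is completed to glutathione by glutathione synthetase, encoded by Gss. Exported glutathione is opened at the cell surface by gamma-glutamyltransferase, the enzyme that Ggt1 encodes, and the remaining dipeptide is cut by surface peptidases such as those encoded by Dpep1 and Anpep, which returns cysteine and glycine to the cell. 5-Oxoprolinase, encoded by Oplah, turns the 5-oxoproline formed from gamma-glutamyl amino acids back into glutamate. Gamma-glutamyltransferase is scarce in adult rat hepatocytes, is carried by bile duct cells, and is a classical histochemical marker of the altered hepatocyte foci that carcinogens induce.

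Levels are given per rat as CPM (counts scaled to a common library size by TMM factors over all 9 rats), which compare 1 gene between rats, and as the authors' FPKM (fragments scaled for transcript length and library size), which compare genes per length. Total counts were 16115709 to 16412520 in the normal control group, 15259441 to 16641954 in the DEN model group and 14922973 to 27161496 in the PZH administration group, where rat 27 was the deepest. A level of 3 counts, taken as the detection floor, equalled 0.125 to 0.252 CPM and covers counting error only. The TMM factors differed by group, from 0.731 to 0.799 in normal control, 1.21 to 1.58 in DEN model and 0.863 to 0.941 in PZH administration rats, and with library totals in their place the median of all genes would shift on the log2 scale by 0.87 for DEN model against normal control, by -0.67 for PZH administration against DEN model and by 0.23 for PZH administration against normal control. That scaling would also raise the share of higher genes among those called from 55.3% to 89.5%, lower it from 45.7% to 8.89%, and raise it from 78.0% to 90.0%, in the same order. All changes are therefore relative to the TMM scaling. The labels name no batch. Across 14479 genes the log2 CPM of rat 27 of the PZH administration group correlated at r = 0.957 and 0.941 with rats 28 and 42 of its group and at 0.936 to 0.955 with the normal control rats, so it stood about as near to the one group as to the other. Where leaving it out changed the call or the direction of a member, the change without it is also given.

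A gene was called changed where edgeR's quasi-likelihood test, run on the 6 rats of a comparison, gave a Benjamini-Hochberg adjusted p under 0.05 over all genes tested. In the DEN model against the normal control group, 7 of the 8 members with enough counts were called, 5 higher (Gclc, Gclm, Gss, Ggt1 and Dpep1) and 2 lower (Anpep and Oplah), while Lap3 was not called and Ggt7 had too few counts to be tested. Among all 14255 genes tested in that comparison 45.8% were called, 25.3% higher and 20.5% lower. The median log2 fold change was 1.45 over the 8 tested members and 0.029 over all tested genes. In each of the 8 members the DEN model and normal control rats had separate ranges, as they had in 58.8% of all tested genes. At the stricter thresholds of the study (unadjusted p under 0.001 and a log2 fold change beyond 2 in size) Gclm, Ggt1 and Dpep1 passed, all higher, where 12.3% of all tested genes passed and 8.81% passed as higher.

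**Figure D1:**
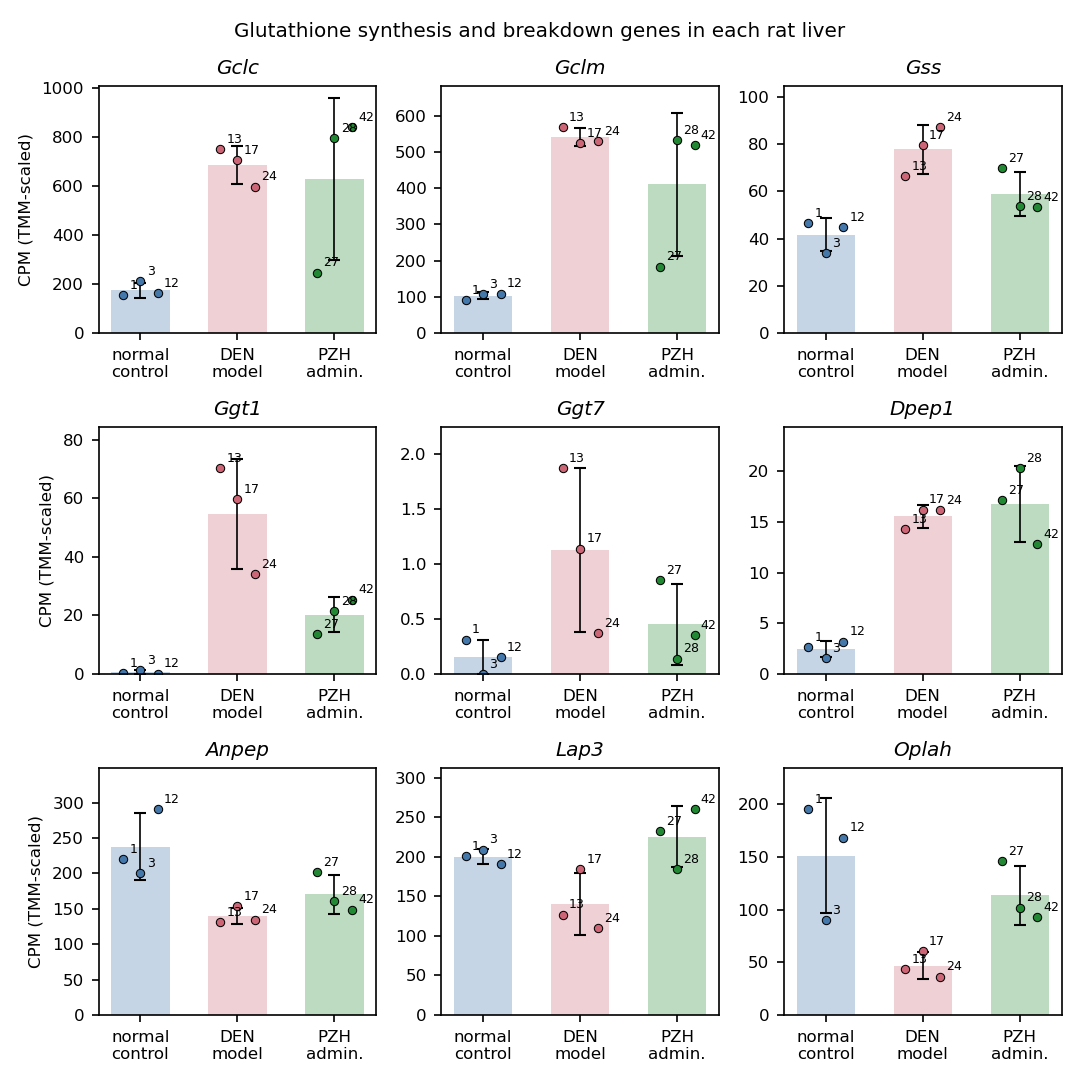
CPM of the 9 measured genes in each rat liver, 1 panel per gene with its own linear axis starting at 0; bars are means, error bars are SD over 3 rats, and the number beside each point is the rat's number. In the PZH administration group, Gclc and Gclm stand above the normal control levels but far below the DEN model levels in rat 27, and near the DEN model levels in rats 28 and 42, while Ggt1 lies between the levels of the other groups in all 3 PZH administration rats.

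The glutamate-cysteine ligase subunits were raised in every DEN model liver. Gclc (chromosome 8, 85059051 to 85097468 in the coordinates of the authors' file, whose build is not given in the sources used here) stood at 154, 161 and 210.4 CPM in the normal control rats and at 598, 706 and 750.0 CPM in the DEN model rats. In the PZH administration group it stood at 246 CPM in rat 27, 797 CPM in rat 28 and 840.1 CPM in rat 42. The DEN model rats thus lay well above all normal control rats, whereas the PZH administration rats spread from just above the normal control range to above the DEN model range. Gclc rose by 1.98 on the log2 scale in DEN model livers (SE 0.25, adjusted p = 0.00059). For PZH administration against DEN model the log2 fold change was -0.11, with a 95% interval of -1.09 to 0.87 (adjusted p = 0.88), and it turned to 0.28 without rat 27 (adjusted p = 0.41).

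Gclm (chromosome 2, 225827504 to 225847874) moved in the same way. Its CPM was 91.4, 108 and 109 in the normal control rats, 524, 530.2 and 568 in the DEN model rats, and 183, 532 and 518 in PZH administration rats 27, 28 and 42. Gclm rose by 2.42 on the log2 scale in DEN model livers (SE 0.22, adjusted p = 0.00017). Against the DEN model group, the PZH administration group differed by -0.38 on the log2 scale, with a 95% interval of -1.25 to 0.50 (adjusted p = 0.52), and by -0.02 without rat 27 (adjusted p = 0.94).

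Since both subunits moved together, the 250 bases before the RefSeq transcription start of each are shown, as RefSeq gives them on the GRCr8 build, 5′ to 3′ on the strand of the gene. They were searched on both strands for TGACNNNGC, the core of the antioxidant response element that the transcription factor Nrf2 binds, and for TGANTCA, the AP-1 site. Capitals mark the match to TGACNNNGC, which was read on the opposite strand from base -172 to base -164 before the start of Gclm. The Gclm window is chr2:213031885-213032134 on the plus strand and the Gclc window is chr8:87510226-87510475 on the plus strand.
Gclm: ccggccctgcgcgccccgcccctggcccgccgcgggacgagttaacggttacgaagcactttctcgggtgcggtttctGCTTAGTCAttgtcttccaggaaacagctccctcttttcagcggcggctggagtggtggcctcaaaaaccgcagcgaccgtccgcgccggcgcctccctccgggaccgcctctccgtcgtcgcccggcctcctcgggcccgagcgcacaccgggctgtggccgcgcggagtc
Gclc: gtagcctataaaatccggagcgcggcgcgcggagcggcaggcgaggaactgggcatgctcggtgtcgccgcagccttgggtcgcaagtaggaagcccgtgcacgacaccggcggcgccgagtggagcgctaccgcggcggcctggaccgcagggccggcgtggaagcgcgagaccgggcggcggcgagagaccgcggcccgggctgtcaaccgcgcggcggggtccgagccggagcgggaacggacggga
The Gclm window held the only match among the 8 members with a promoter entry, and none of the 8 held TGANTCA. Sequence beyond these 250 bases was not searched, so a window without a match does not show that the gene lacks the element. Over 33469 RefSeq promoter windows of this length, 10.1% held TGACNNNGC and 6.34% held TGANTCA. The G+C share was 70.4% in the Gclm window and 74.8% in the Gclc window.

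Per length, the transcript of the modifier subunit was the more abundant in all 9 livers. The ratio of Gclc to Gclm FPKM was 0.726 to 0.955 in the normal control rats, 0.550 to 0.658 in the DEN model rats and 0.657 to 0.792 in the PZH administration rats. The ratio was thus lower in each DEN model rat than in each normal control rat, and rat 27, whose levels of both subunits were low, had a ratio of 0.657, just under the highest DEN model value. Over the 9 rats the log2 CPM of Gclc and Gclm correlated at r = 0.984, and by this measure Gclm was the gene most like Gclc among 13224 genes, a rank looked up after the values were known. These 9 points fall into groups and share the DEN contrast, so the correlation is a description.

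**Figure D2:**
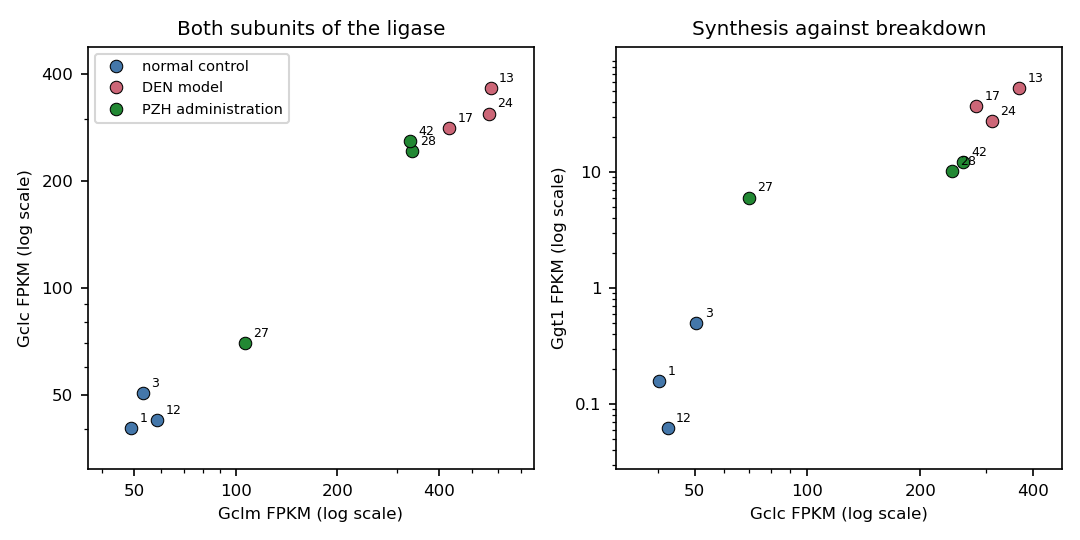
FPKM of Gclc against Gclm (left) and of Ggt1 against Gclc (right) on log axes, 1 point per rat with its number, coloured by group; FPKM are not TMM-scaled, so distances between groups differ from those in CPM. Gclc and Gclm lie close to a line in all 9 rats, with PZH administration rat 27 nearest to the normal control rats, while on the Ggt1 axis rat 27 lies apart from every normal control rat.

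Gss (chromosome 3, 151076254 to 151106557), whose product adds glycine in the final step, changed less than the ligase subunits. It stood at 33.7, 44.9 and 46.6 CPM in the normal control rats, at 66.5, 79.7 and 87.2 CPM in the DEN model rats, and at 69.9, 53.8 and 53.4 CPM in PZH administration rats 27, 28 and 42. Rat 27 was the highest of its group in Gss although it was the lowest in Gclc and Gclm. Gss rose by 0.92 on the log2 scale in DEN model livers (SE 0.19, adjusted p = 0.0048). Between PZH administration and DEN model the log2 fold change was -0.37 (95% interval -0.83 to 0.08, adjusted p = 0.22), and scaling by library totals made it a called decrease (-1.06, adjusted p = 0.0073). The FPKM of Gclc was 2.04 to 3.86 times that of Gss in normal control rats and 4.24 to 6.97 times in DEN model rats. In PZH administration rats the same ratio was 2.18 in rat 27, 9.14 in rat 28 and 9.73 in rat 42. Of the 6 rats injected with DEN, 5 had a higher ratio than every normal control rat, and rat 27 did not.

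Ggt1 (chromosome 20, 14019723 to 14025068), the surface transferase that starts glutathione breakdown, went from near the detection floor to a readily measured transcript. Its raw counts were 5, 2 and 16 in normal control rats 1, 12 and 3, and 1656, 1206 and 819 in DEN model rats 13, 17 and 24. In CPM the same rats stood at 0.390, 0.153 and 1.34 and at 70.3, 59.7 and 34.0. The PZH administration rats lay between both groups without overlap, at 13.7 CPM in rat 27, 21.4 CPM in rat 28 and 25.4 CPM in rat 42. Ggt1 was 89.0-fold higher in the DEN model than in the normal control group, a log2 fold change of 6.48 (SE 0.57, 95% interval 5.18 to 7.78, adjusted p = 0.00015). The size depends on the few normal control counts, and the log2 fold change was 7.64 without normal control rat 3.

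Against the DEN model group, Ggt1 fell by 1.42 on the log2 scale in the PZH administration group (SE 0.32, 95% interval -2.15 to -0.69, adjusted p = 0.022), and the PZH administration rats remained 32.2-fold above the normal control group (log2 fold change 5.01, adjusted p = 0.0044, and 6.20 without normal control rat 3). The decrease was the only one called among the 9 members in this comparison, and Oplah was the only increase. Among all 14272 genes tested 19.1% were called, 8.72% higher and 10.3% lower, so the 2 of 9 members called are a share near the background. The groups did not overlap in 3 members (Ggt1, Oplah and Lap3), nor in 40.9% of all tested genes, and the median log2 fold change was -0.11 over the members. The decrease did not stay called when any of 3 rats was left out: it was -1.20 without DEN model rat 13 (adjusted p = 0.085), -1.20 without PZH administration rat 27 (adjusted p = 0.0502) and -1.46 without PZH administration rat 28 (adjusted p = 0.064). No member passed the study's thresholds between PZH administration and DEN model, where 2.43% of all tested genes did.

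By the rule that names the genes with the most similar pattern, Ggt1 was matched over the 9 rats by Cldn8 (r = 0.989), which encodes a claudin of tight junctions, Gsta3 (r = 0.989), a glutathione S-transferase, Unc13b (r = 0.987), Sorcs1 (r = 0.985) and Il17rd (r = 0.984), out of 13224 genes. Gsta3 averaged 7.50 ± 4.69 CPM in the normal control, 123 ± 32.3 in the DEN model and 95.1 ± 31.8 in the PZH administration group (SD, n = 3). Cldn8 averaged 0.0559, 5.28 and 2.91 CPM in the same order. All 5 genes stood lowest in normal control and highest in DEN model rats by their group means. They were picked for their likeness to Ggt1 in these same rats, so this order follows from the choice and is a description.

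The other transferase with a line in the table, Ggt7 (chromosome 3, 151006531 to 151032302), was barely detected. Its counts were 4, 2 and 0 in normal control rats 1, 12 and 3, then 44, 23 and 9 in DEN model rats 13, 17 and 24, and 20, 2 and 5 in PZH administration rats 27, 28 and 42. The DEN model rats were all above the normal control rats, but the comparison was not tested at this depth, and the PZH administration rats overlapped both groups. For PZH administration against DEN model the log2 fold change of -1.20 had an interval of -2.95 to 0.54 (adjusted p = 0.30). On chromosome 3, Ggt7 ends at 151032302 and Gss starts at 151076254, and whether other genes lie between them was not looked up.

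The surface peptidases that follow the transferase went in different directions. Dpep1 (chromosome 19, 55982740 to 55998208), a membrane dipeptidase that splits cysteinylglycine, stood at 2.65, 3.20 and 1.59 CPM in normal control rats 1, 12 and 3 and at 14.3, 16.2 and 16.2 CPM in DEN model rats 13, 17 and 24. In PZH administration rats 27, 28 and 42 it stood at 17.1, 20.3 and 12.8 CPM, around the DEN model values and above every normal control rat. Dpep1 rose by 2.66 on the log2 scale in DEN model livers (SE 0.28, adjusted p = 0.00031) and by 2.76 in the PZH administration group against normal control (SE 0.32, adjusted p = 0.0039). Between the DEN groups the log2 fold change was 0.13 (adjusted p = 0.70), and it was -0.54 with library totals and -0.02 without PZH administration rat 28, so it had no settled direction.

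Anpep (chromosome 1, 141561334 to 141604273) encodes aminopeptidase N, which sits on the canalicular membrane of hepatocytes and on other brush borders. Its CPM was 220.4, 291 and 201 in normal control rats 1, 12 and 3, then 131, 153 and 135 in DEN model rats 13, 17 and 24, and 202, 161 and 149 in PZH administration rats 27, 28 and 42. The DEN model rats were below every normal control rat, and the PZH administration rats overlapped both groups. Anpep fell by 0.75 on the log2 scale in the DEN model group (SE 0.22, adjusted p = 0.022). This call was lost without DEN model rat 13 (-0.70, adjusted p = 0.092), DEN model rat 24 (-0.71, adjusted p = 0.071) or normal control rat 12 (-0.57, adjusted p = 0.078), and with library totals the direction turned (0.10, adjusted p = 0.70).

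Lap3 (chromosome 14, 70102814 to 70121797), a cytosolic leucine aminopeptidase that can also cut cysteinylglycine, stood at 191 to 209 CPM in the normal control rats. It stood at 127, 185 and 110 CPM in DEN model rats 13, 17 and 24 and at 232, 185 and 260.3 CPM in PZH administration rats 27, 28 and 42. The highest DEN model rat (184.6 CPM) met the lowest PZH administration rat (184.7 CPM). The log2 fold change was -0.50 in the DEN model against the normal control group (95% interval -1.03 to 0.04, adjusted p = 0.12), it was called without DEN model rat 17 (-0.75, adjusted p = 0.013) and it turned to 0.34 with library totals. For PZH administration against DEN model it was 0.71 (95% interval 0.12 to 1.29, adjusted p = 0.088), and it was called without DEN model rat 17 (0.94, adjusted p = 0.024) and by DESeq2 (0.72, adjusted p = 0.037).

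Oplah (chromosome 7, 117353786 to 117369159), which returns 5-oxoproline to the glutamate pool, had the opposite course to Ggt1. Its CPM was 195, 168 and 89.9 in normal control rats 1, 12 and 3, then 43.3, 60.9 and 36.5 in DEN model rats 13, 17 and 24, and 146, 102 and 92.8 in PZH administration rats 27, 28 and 42. The DEN model rats lay below all other rats, and the PZH administration rats fell within the wide normal control range. Oplah fell by 1.67 on the log2 scale in the DEN model group (SE 0.31, adjusted p = 0.0034). It rose by 1.30 in the PZH administration against the DEN model group (SE 0.27, 95% interval 0.69 to 1.92, adjusted p = 0.018), a call lost without DEN model rat 13 (1.25, adjusted p = 0.080) or rat 24 (1.15, adjusted p = 0.065). Against normal control the PZH administration group differed by -0.40 on the log2 scale (adjusted p = 0.54).

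**Figure D3:**
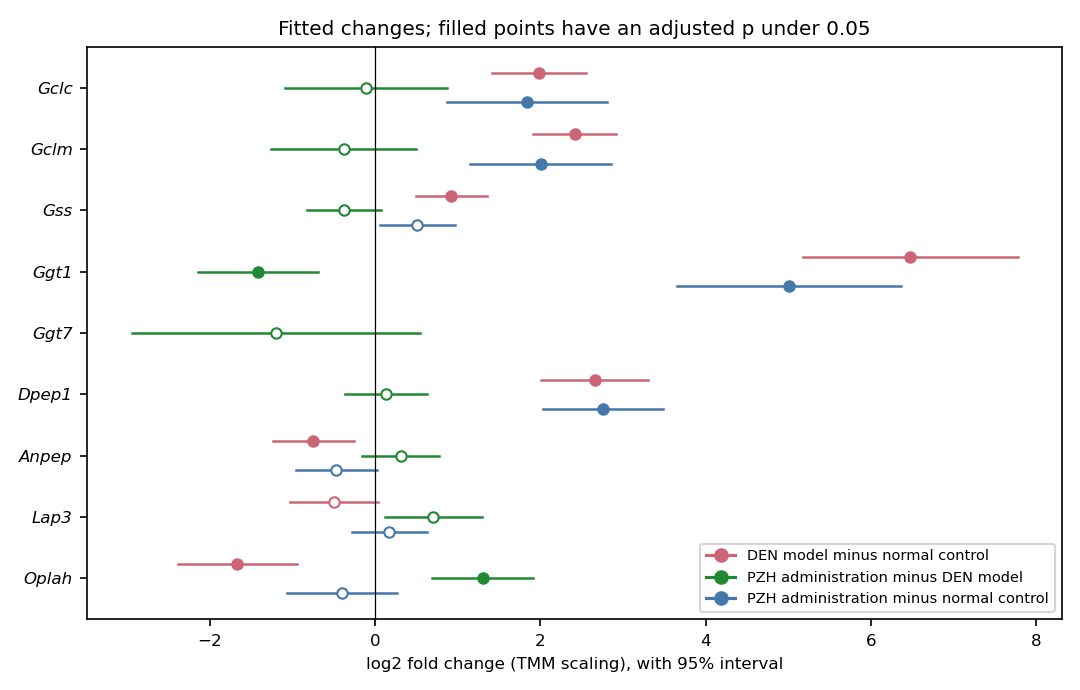
Fitted log2 fold changes (points) with 95% intervals (lines) of each gene in the 3 comparisons, filled where the adjusted p is under 0.05; Ggt7 was tested in 1 comparison only. Ggt1 has the largest change from normal control of the genes shown in both DEN groups, and in the comparison of PZH administration with DEN model only Ggt1 and Oplah have filled points.

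Compared with normal control rats, the PZH administration group had 4 of the 8 tested members higher, namely Gclc, Gclm, Ggt1 and Dpep1, and none lower. Among all 13348 genes tested there, 5.21% were called, 4.07% higher and 1.15% lower. The median log2 fold change was 1.17 over the tested members and -0.02 over all tested genes. These comparisons share the normal control rats with those of the DEN model group. The groups did not overlap in 5 members, the 4 called and Gss, against 24.2% of all tested genes. Gclm, Ggt1 and Dpep1 passed the study's thresholds, all higher, where 2.32% of all tested genes did and 2.16% did as higher. Gclc was higher by 1.84 on the log2 scale (adjusted p = 0.042) and Gclm by 2.01 (adjusted p = 0.019), and both calls were lost when normal control rat 1, 3 or 12, or PZH administration rat 28 or 42, was left out, with log2 fold changes of 1.57 to 2.01 for Gclc and 1.77 to 2.06 for Gclm. Without PZH administration rat 27 the same changes were 2.22 (adjusted p = 0.00096) and 2.35 (adjusted p = 0.00044), and 4 members were again called. Gss was at 0.51 (adjusted p = 0.21), Anpep at -0.47 (adjusted p = 0.29) and Lap3 at 0.18 (adjusted p = 0.72).

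Ranked by FPKM, the order of the transcripts differed between the groups. In normal control livers Lap3 led with 71.0 ± 1.87 FPKM, followed by Gclm with 53.4 ± 4.72 and Gclc with 44.4 ± 5.43 (SD, n = 3). The ranges of Lap3, Gclm and Anpep did not meet, whereas Gclc and Gclm overlapped, as did Gclc and Anpep. Dpep1 at 0.948 ± 0.347, Ggt1 at 0.239 ± 0.229 and Ggt7 at 0.0463 ± 0.0465 FPKM formed the bottom. In DEN model livers Gclm (520.1 ± 79.9 FPKM) and Gclc (319 ± 43.2) stood first, above Lap3 (89.4 ± 11.9), and Ggt1 (39.0 ± 13.1) had reached the level of Anpep (38.4 ± 2.64), with ranges that overlapped. In PZH administration livers Gclm (256 ± 129) and Gclc (191 ± 105) again stood first, but through rat 27 (106 FPKM of Gclm and 69.8 of Gclc) both ranges met that of Lap3 (94.1 ± 16.9, from 78.5 to 112). Ggt1 (9.41 ± 3.12) and Dpep1 (7.43 ± 1.67) overlapped near the bottom of the order there.

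The makeup of the surface enzymes therefore shifted. Of the summed FPKM of Ggt1, Dpep1 and Anpep, Ggt1 held 0.134% to 1.69% in normal control rats, 33.6% to 52.4% in DEN model rats and 12.8% to 26.9% in PZH administration rats. Anpep held 96.4% to 97.2%, 37.4% to 51.0% and 60.1% to 71.8% in the same order. The 3 groups did not overlap in either share. In CPM, which compare rats, the sum of Gclc, Gclm and Gss was 292 to 352 in normal control rats, 1215 to 1384 in DEN model rats, and 499, 1382 and 1411 in PZH administration rats 27, 28 and 42, so rats 28 and 42 lay at or above the top of the DEN model range and rat 27 lay between the groups. Within each rat, the summed FPKM of these 3 synthesis genes was 2.59 to 3.95 times that of the 3 surface enzymes in normal control rats, 9.24 to 11.7 times in DEN model rats, and 4.43, 12.5 and 13.6 times in PZH administration rats 27, 28 and 42. Ggt1 amounted to 8.78% to 14.5% of Gclc in DEN model rats and to 8.61%, 4.15% and 4.67% in PZH administration rats 27, 28 and 42. These ratios were not tested.

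**Figure D4:**
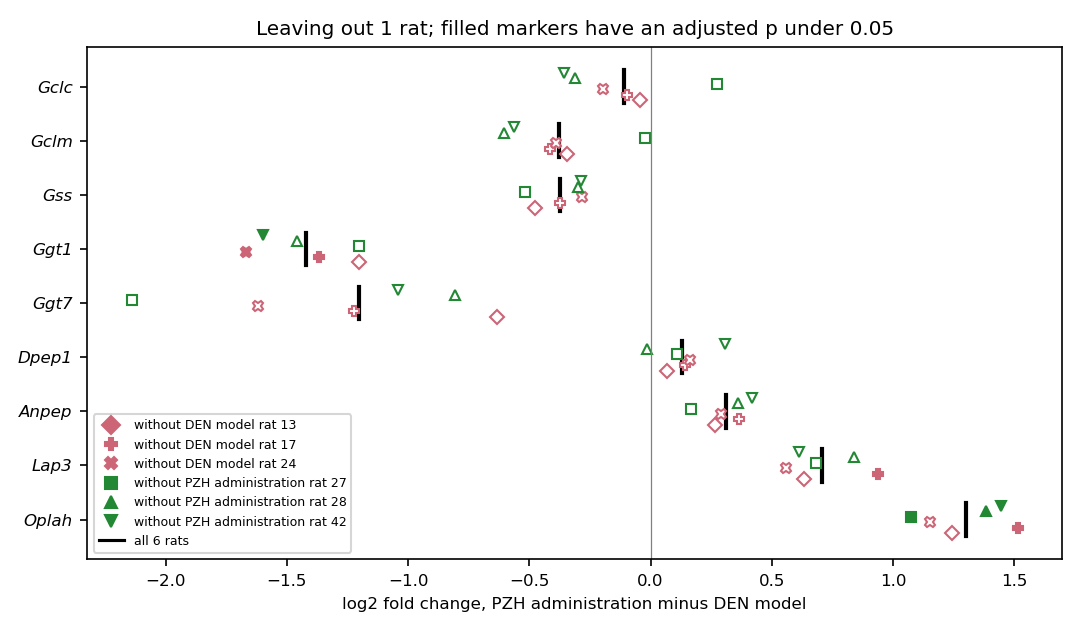
Fitted log2 fold changes of PZH administration against DEN model with all 6 rats (black bars) and after leaving out each rat in turn (markers, filled where the adjusted p is under 0.05). Gclc and Gclm shift towards higher values without PZH administration rat 27, where Gclc crosses 0, while Ggt1 stays below 0 and Oplah and Lap3 stay above 0 in every case.

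The place of rat 27 within its group differed from gene to gene. Its level was 30.1% of the mean of rats 28 and 42 for Gclc, 34.9% for Gclm and 58.6% for Ggt1, but 103% for Dpep1, 104% for Lap3, 130.1% for Anpep, 130.3% for Gss and 149.7% for Oplah. For the barely detected Ggt7 it was 345%. Outside the members it stood at 13.7% for Slc7a11, the cystine importer, at 33.8% for Gstp1 and at 73.8% for Nqo1. Of 14479 genes, 5.77% were more than 1 log2 unit lower and 8.55% more than 1 log2 unit higher in rat 27 than in the mean of the other two, and 1.10% had a lower difference than Gclc.

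Other steps around the pathway were read from gene lists. Of all genes tested, 25.3% were called higher and 20.5% lower in DEN model against normal control. The same shares were 8.72% and 10.3% in PZH administration against DEN model, and 4.07% and 1.15% in PZH administration against normal control. Median log2 fold changes over all tested genes were 0.029, 0.005 and -0.02 in that order. Among the other gamma-glutamyl cycle enzymes, 1 of 6 tested genes rose and 5 fell in the DEN model group (median log2 fold change -0.82). With library totals only Dpep2 rose and only Chac1 fell, and Ggact and Ggct turned direction. Chac1, a cytosolic enzyme that cleaves glutathione itself, fell by 2.97 on the log2 scale (SE 0.47, adjusted p = 0.0016), from 15.8 to 58.0 CPM in normal control to 3.65 to 4.71 CPM in DEN model rats. Its relative Chac2 fell by 0.91 (adjusted p = 0.0067), and Ggact, which releases amino acids as 5-oxoproline forms, fell by 0.59 (adjusted p = 0.046), a call kept in 1 of the 6 fits without 1 rat (that without normal control rat 1). Dpep2, a dipeptidase found mainly in leukocytes, rose by 1.81 (adjusted p = 0.014), not called without DEN model rat 13 or normal control rat 1. Between PZH administration and DEN model, Chac1 rose by 1.97 (adjusted p = 0.038) and Chac2 by 0.80 (adjusted p = 0.036), Dpep2 fell by 1.97 (adjusted p = 0.035), and the other 3 tested genes did not pass. With library totals Dpep2 alone passed. Of the 6 fits that left out 1 rat, Chac1 was called in 2 (without PZH administration rat 27 or 42) and stood at 1.02 without rat 28, Chac2 was called in 1 (without rat 27) and Dpep2 in 2 (without rat 27 or DEN model rat 17). No gene of this list was called in 5 tested between PZH administration and normal control, where the log2 fold change of Chac1 was -1.02 (adjusted p = 0.43).

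Among 11 genes of cysteine and glutamate supply, 3 rose and 6 fell in the DEN model group, and 5 rose and 2 fell in PZH administration against DEN model. Over all tested genes 25.3% rose and 20.5% fell in the first comparison, and 8.72% rose and 10.3% fell in the second. The median log2 fold changes of the list were -1.46 and 1.50, beside 0.029 and 0.005 over all tested genes. Slc7a11, which brings in the cystine that feeds synthesis, went from 0 to 0.534 CPM in normal control rats to 67.0 to 503 CPM in DEN model rats (log2 fold change 10.46, SE 1.09, adjusted p = 0.00029). In PZH administration rats it stood at 5.89 to 59.5 CPM, below every DEN model rat, and fell by 3.46 on the log2 scale (SE 0.94, adjusted p = 0.038). This call held only without DEN model rat 17 when 1 rat was left out, with log2 fold changes of -4.38 to -2.96 and adjusted p up to 0.11. Cbs, which makes cystathionine on the route from methionine to cysteine, fell by 3.54 in the DEN model group (adjusted p = 0.0046) and rose by 2.45 in PZH administration against DEN model (adjusted p = 0.047). The rise was likewise called in 1 of the 6 fits without 1 rat, that without DEN model rat 17 (3.83), and ranged from 2.01 upwards with adjusted p up to 0.15. Cdo1, which oxidises cysteine and so draws on the same pool, fell by 3.53 (adjusted p = 0.0011) and rose by 2.69 (adjusted p = 0.013), the rise not called without DEN model rat 13 (adjusted p = 0.059). The glutamate transporter gene Slc1a1 had 0 counts in all normal control rats and 3.23 CPM on average in DEN model rats, at least 13.6-fold higher against the mean of the normal control rats' floors of 3 counts per library (adjusted p = 0.015). This mean rests on DEN model rat 13 at 8.11 CPM, and the other two rats, at 0.841 and 0.747 CPM, give at least 3.33-fold.

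Among 7 genes of glutathione export, import and reduction, 4 rose and none fell in the DEN model group (median log2 fold change 1.40), 2 fell in PZH administration against DEN model (median -0.40), and 3 were higher in PZH administration than in normal control. Beside these counts, 25.3% of all tested genes rose in the first comparison, 10.3% fell in the second and 4.07% were higher in the third. Abcc1, an export pump for glutathione conjugates, rose by 2.76 on the log2 scale (SE 0.24, adjusted p = 0.00014) and Abcc4 by 2.67 (adjusted p = 0.00064). In PZH administration against DEN model, Abcc1 fell by 1.16 (adjusted p = 0.017, not called without DEN model rat 13 or 24) and Abcc4 stood at -1.05 (adjusted p = 0.075). Abcc2, the canalicular pump, was at -0.03 in the DEN model against normal control (adjusted p = 0.93), and Slc25a39, which carries glutathione into mitochondria, at -0.21 (adjusted p = 0.40). With library totals all 7 were called higher in the DEN model group, Abcc2 and Slc25a39 with a turned direction.

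Gclc and Gclm belong to the genes that Nrf2 is known to drive, and 9 of the 11 listed Nrf2 regulators and linked genes were tested. Of these, 4 rose and 1 fell in the DEN model group, 3 fell in PZH administration against DEN model, and 2 were higher in PZH administration than in normal control. For comparison, 25.3% of all tested genes rose and 20.5% fell in the first, 10.3% fell in the second and 4.07% were higher in the third. The median log2 fold changes of the list were 0.67, -0.12 and 0.33 in that order, beside 0.029, 0.005 and -0.02 over all tested genes. Nqo1, a quinone reductase, rose by 3.77 (SE 0.37, adjusted p = 0.00023) and then fell by 1.03 in PZH administration against DEN model (adjusted p = 0.027). When 1 rat was left out, that fall was called only without DEN model rat 17, with adjusted p up to 0.083. Bach1, a repressor of such genes, fell by 1.07 in the DEN model group (adjusted p = 0.0030), which with library totals was no longer called, and Keap1, which holds Nrf2 back, was at -0.54 (adjusted p = 0.082) and turned direction with library totals.

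Of the 7 genes that mark enzyme-altered foci in rat liver, a list to which Ggt1 would also belong, 6 rose in the DEN model group, 3 fell in PZH administration against DEN model and 6 were higher in PZH administration than in normal control, with median log2 fold changes of 3.77, -1.16 and 2.71. The shares of all tested genes with these calls were 25.3%, 10.3% and 4.07% in the same order. Gstp1, the placental-form glutathione S-transferase, averaged 14.6 ± 2.47 CPM in normal control, 1308 ± 245 in DEN model and 580.2 ± 285 in PZH administration rats (SD, n = 3). Its log2 fold change was 6.50 in DEN model against normal control (SE 0.34, adjusted p = 2.0e-05) and -1.16 in PZH administration against DEN model (adjusted p = 0.090). Gpc3, an oncofetal surface proteoglycan, rose by 6.32 in the DEN model group (adjusted p = 0.00011) and fell by 1.91 in PZH administration against DEN model (adjusted p = 0.023). The fall, too, was called only without DEN model rat 17 among those 6 fits, with adjusted p up to 0.082. Ephx1, microsomal epoxide hydrolase, rose by 1.36 (adjusted p = 0.015), not called without normal control rat 1 or 3. Afp, the fetal albumin gene, stood at 206 CPM in DEN model rat 24 but at 8.95 and 14.1 CPM in DEN model rats 13 and 17, beside 13.3 to 17.3 CPM in normal control rats. Its log2 fold change of 2.38 (adjusted p = 0.091) turned to -0.34 without rat 24 (adjusted p = 0.38). Like those of the members, these changes between PZH administration and DEN model depended on the scaling: with library totals 5 of the 7 genes were called lower.

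Because the tissue was whole liver, fewer cells of a type and less RNA per cell cannot be told apart, and markers of cell types that carry these enzymes were read beside them. The summed CPM of 8 hepatocyte markers was 155100 to 164800 in normal control, 31840 to 73860 in DEN model and 126400 to 165600 in PZH administration rats. The liver label was thus met by high hepatocyte markers in every rat, with the lowest sums in the DEN model group, where Oplah and Anpep were also lowest. Most of these sums came from Alb and Tf (means of 94900 and 36450 CPM in normal control rats). Of the 8 markers, 4 were called lower in the DEN model group, as were 20.5% of all tested genes, and 4 were not called. The Alb decrease (log2 fold change -2.09, adjusted p = 0.037) stayed called in 1 of the 6 fits without 1 rat. In PZH administration against DEN model, 3 of the 8 were called higher, beside 8.72% of all tested genes. The 7 cholangiocyte markers, from cells that carry gamma-glutamyltransferase, summed to 30.6 to 43.0 CPM in normal control, 269.9 to 787 in DEN model and 99.9 to 132 in PZH administration rats. All 7 rose in the DEN model group and all 7 fell in PZH administration against DEN model, in parallel with Ggt1. Of all tested genes, 25.3% rose in the former comparison and 10.3% fell in the latter. Summed markers of stellate cells and myofibroblasts ran from 175 to 276, from 905 to 2659 and from 503 to 612 CPM in the same order. Neutrophil markers ran from 1.75 to 2.03, from 14.2 to 28.7 and from 4.27 to 4.95 CPM, and lymphocyte markers from 3.61 to 6.10, from 7.13 to 34.9 and from 2.71 to 6.96 CPM. Macrophage markers summed to 428 to 836, 394 to 530.3 and 223 to 516 CPM, and endothelial markers to 291 to 359, 108 to 222 and 230.1 to 327 CPM.

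Kidney and intestine carry Ggt1, Dpep1 and Anpep at high levels on their brush borders, so their markers were read too. The 6 renal tubule markers summed to 0.687 to 1.01 CPM in normal control, 3.49 to 8.41 in DEN model and 4.14 to 8.97 in PZH administration rats, and the defining marker Slc34a1 had 0 counts in every rat. The higher sums came from Slc22a12, at most 0.0781 CPM in normal control, 3.32 to 7.82 in DEN model and 3.20 to 8.63 in PZH administration rats, while Slc22a6 was at 0.458 to 0.781 CPM in normal control and at most 0.255 CPM in DEN model rats. The 6 enterocyte markers summed to 192 to 214, 20.8 to 462 and 30.2 to 121 CPM, with Alpi at 0 counts in every rat. Cdh17 made up most of the normal control sum (189 to 211 CPM), so that sum stands for this gene and was not read as a sign of intestinal tissue. Lgals4 had 0 counts in normal control rats and stood at 34.6, 0.495 and 164 CPM in DEN model rats 13, 17 and 24, and Vil1 rose from 0 to 0.534 CPM to 22.0, 4.31 and 22.4 CPM in the same rats. In PZH administration rats Lgals4 was at 0.278 to 0.299 and Vil1 at 1.45 to 2.29 CPM. The part that the other cell types have in the changes of the members was not tested.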

How the data were processed

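Liver mRNA of 9 rats was sequenced by the authors, whose processing notes name fastp, HISAT2 2.1.0, StringTie 1.3.3b and edgeR 3.30.3; the genome build is not given in the sources used here. The deposited table holds counts per gene and rat, which the authors did not normalize, and FPKM values, which the authors scaled for transcript length and library size. Its group means and the results of the authors' own comparisons (log2 fold change, P-value and Q-value) were not used.

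Tests used edgeR 4.0.16 in R 4.3.3: filterByExpr chose the genes, TMM gave the scaling, and the quasi-likelihood fit and test (glmQLFit, glmQLFTest) took only the 6 rats compared and no covariate. The Benjamini-Hochberg adjustment ran over every gene tested. SE is the absolute log2 fold change divided by the square root of F, and 95% intervals use the fit's degrees of freedom. Correlations use log2 CPM with a prior count of 2. The steps were tested on data simulated for DEN model against normal control only, with as many genes raised as lowered. No shift in scaling between the groups was built in, so that test does not check the TMM scaling. No pair of libraries held identical counts.

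The members and gene lists were chosen with earlier results of these data known. Named genes are all members, in each list the 2 highest and 2 lowest by log2 fold change in DEN model against normal control, Slc7a11, Gstp1 and the 5 genes with the highest r with Ggt1; 1 gene that the rule names is not reported here. Alternatives were library totals, DESeq2 1.42.0, no filter, a minimum of 10 counts per rat, a joint fit of all 3 groups, the study's thresholds, and leaving out each rat. Promoter sequences come from RefSeq (GRCr8), as bases before the start only, for 8 of 10 members.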

Additional observations from a re-analysis of the deposited data

How the results depend on the processing

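Of the log2 fold changes of single members, 81 of 87 alternatives for DEN model against normal control gave the same direction and side of the threshold, as did 86 of 98 for PZH administration against DEN model and 76 of 87 for PZH administration against normal control. Direction turned with library totals for Anpep (0.10) and Lap3 (0.34) in DEN model against normal control and for Anpep (-0.36) and Dpep1 (-0.54) in PZH administration against DEN model, and in the latter also for Gclc without rat 27 (0.28) and Dpep1 without rat 28 (-0.016, in a range up to 0.306 over the rats left out). In DEN model against normal control, 7 members and 6529 genes were called; the study's thresholds gave 3 and 1753, and leaving out 1 rat gave 6 to 8 and 4724 to 6790. In PZH administration against DEN model, 2 members and 2722 genes were called; the study's thresholds gave 0 and 347, library totals gave 6252 genes, and leaving out 1 rat gave 0 to 3 members and 271 to 3319 genes. No member was called without DEN model rat 13 by edgeR's test, and 4981 genes had an unadjusted p under 0.05 with all 6 rats. One member was called without DEN model rat 24, PZH administration rat 27 or rat 28. In PZH administration against normal control, 4 members and 696 genes were called; DESeq2 gave 1320 genes, at least 10 counts in every rat gave 2 members and 340 genes, the study's thresholds gave 310 genes, and leaving out 1 rat gave 2 to 4 members and 207 to 1326 genes. The cause of these shifts was not tested. No paired analysis was possible because the rats' numbers are not shared between groups. Depth limits Ggt7 in every group and Ggt1 in normal control rats.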
